A study of Rattus norvegicus with 6 samples.

Results

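Acute phase plasma proteins, many of which the liver makes in greater amounts during inflammation, were followed as a set. Its 10 rat genes were Hp, Crp, Orm1, Saa4, Lcn2, Apcs, Itih3, Itih4, Lbp and Cp. They were taken by name, with all of their probes, among the 15284 genes that could be named on the array. The 10 genes had 17 probes, and all 17 were well above background on all 6 arrays. Of the genes, 5 had 1 probe each and 5 had several.

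The livers came from male Sprague-Dawley rats. Treated animals (3) received 1000 mg/kg/day of BBMP, short for 2,2-Bis(Bromomethyl)-1,3-Propanediol, which is used as a flame retardant, and the other 3 received corn oil alone. All were of 1 strain, were bought at 5 weeks of age and ate a basal diet, and each liver was read on 1 Agilent array with a single dye. The time on treatment is given as 28 days in the series design and as 9 weeks in the treatment protocol, and the labels do not reconcile these. The 3 BBMP arrays shared 1 slide and scan, and the 3 corn oil arrays shared a different one. The effect of the slide or scan and that of BBMP therefore cannot be told apart in what follows.

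In the acute phase response, cytokines released by macrophages, chiefly interleukin 6 and interleukin 1, act on hepatocytes. STAT3, C/EBP factors and NF-kB then switch on genes for secreted proteins that bind haem, iron, lipids and microbial products or that restrain proteases. In the rat, alpha-2-macroglobulin (A2m) and alpha-1-acid glycoprotein (Orm1) are strong reactants, whereas Crp is made at a high level without inflammation.

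Values are log2 of the background-subtracted signal over the array's own 75th percentile. A value of 0 is thus the 75th percentile of that array, which lay between 450.1 and 570.4 intensity units. A level belongs to its probe, so levels are compared between animals and not between genes. Between 60.1% and 64.4% of the 61573 probes were well above background on each array; precision is limited by having 3 arrays a group. Across 28112 features (a named gene, or an unnamed accession or probe), correlations between arrays lay between 0.986 and 0.992. The first principal component (32.9% of the variance) set the groups apart, and with them slide and scan. BBMP arrays lay at -27.5, -28.7 and -19.1 on it and corn oil arrays at 9.6, 50.8 and 14.8. Corn oil 2 stood farthest from the other arrays. All 10 hepatocyte markers were well above background on all 6 arrays.

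No gene of the set rose or fell past the threshold after BBMP. Of the 10, 8 were lower and 2 higher in BBMP livers than in corn oil livers, with differences from -0.29 (Itih4) to 0.05 (Apcs) and a median of -0.20 on the log2 scale. Over all features 52.5% were lower and the median was -0.01. With limma's Benjamini-Hochberg adjusted p of 0.05 as the threshold, 0 of 10 passed, and the smallest adjusted p was 0.406. Of all features 0.00711% passed (2 of 28112). At an unadjusted limma p under 0.05 there were 2 of the 10, Itih4 and Itih3, both lower, against 10.8% of all features (6.1% lower). Itih4 alone was left there without BBMP 1, BBMP 2, corn oil 2 or corn oil 3, neither gene without BBMP 3, and Itih4 and Orm1 without corn oil 1. The unmoderated unequal-variance test also put 0 past its adjusted threshold and the same 2 under an unadjusted 0.05. The groups did not overlap for 4 genes, Itih4, Itih3, Lbp and Saa4, all lower after BBMP, against 17.9% of all features (9.6% lower). Most of the 10 are bright, so the 1175 features above a log2 level of 6 are a closer background, though not a matched one. That limit was chosen after the data were seen. It lies well below Hp, Saa4 and Itih4, whose corn oil means were 10.42, 9.69 and 10.07. Of the 1175, 48.7% were lower, 8.68% had an unadjusted p under 0.05 and 27.2% had groups that did not overlap. Without corn oil 1 the count of 4 became 6, with Orm1 and Cp added. Leaving out an animal can only keep or raise this count, so nothing is concluded from the rise. The 95% confidence intervals give the differences that the spread among animals allows, and they do not cover slide or scan. Over the probes that represent the 10 genes, the highest upper end was 0.35 on the log2 scale (Apcs), which is 1.27-fold. The lowest lower end was -0.75 (Lcn2), which is 0.597-fold. Another probe of Cp, A_43_P11448, had a higher upper end of 0.42, which is 1.34-fold. With 3 animals against 3, an exact two-sided permutation test of a single gene cannot give a p below 0.1.

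**Figure D1:**
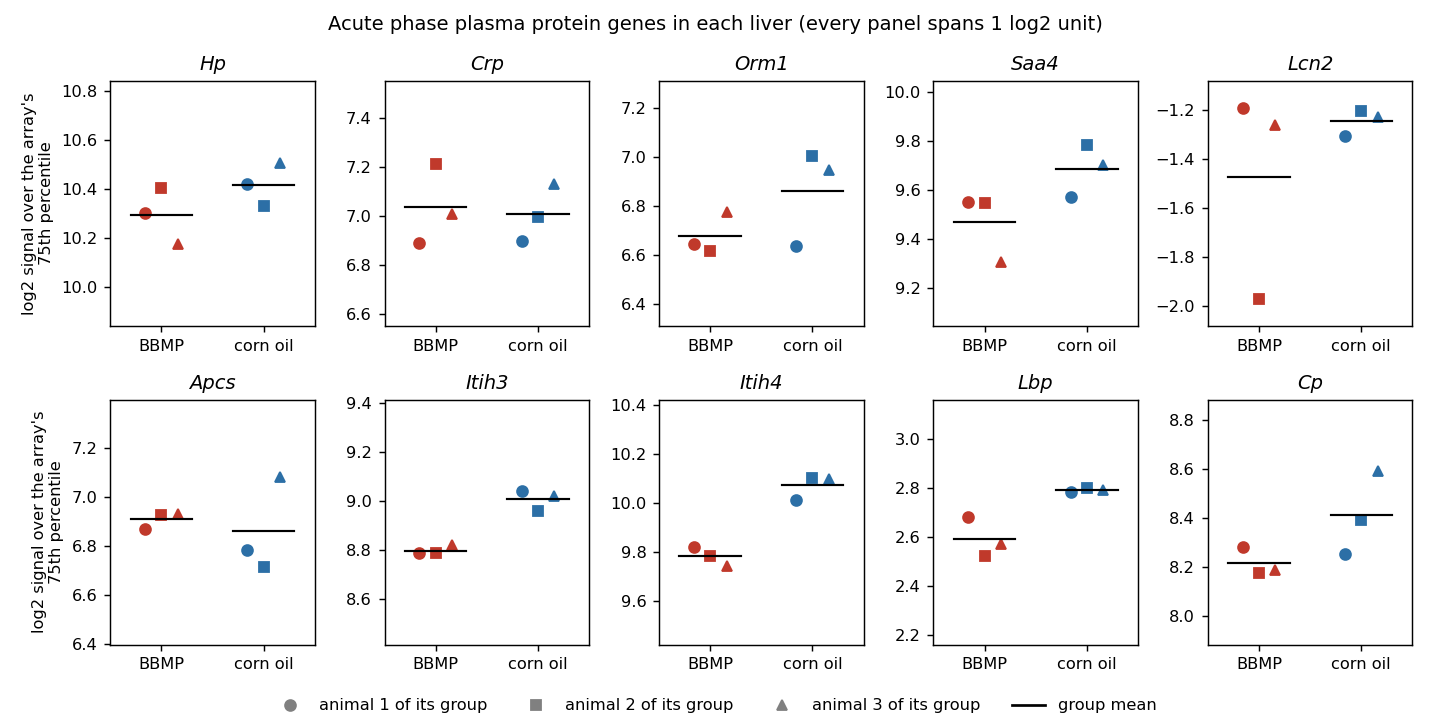
Log2 signal over the array's 75th percentile (vertical axis) of each of the 10 genes in the 3 BBMP livers (red, left) and the 3 corn oil livers (blue, right); symbols are animals, black lines are group means and every panel spans 1 log2 unit. The groups are apart for Itih3, Itih4, Lbp and, narrowly, Saa4; 1 BBMP liver sets the lower mean of Lcn2.

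Itih3 and Itih4 belong to the inter-alpha-trypsin inhibitor heavy chain family, liver proteins of which several help to stabilise hyaluronan in the extracellular matrix. The product of Itih4 is a substrate of plasma kallikrein. Itih4 read 9.82, 9.78 and 9.74 in BBMP livers, against 10.01, 10.10 and 10.10 in corn oil livers. All 3 BBMP livers lay below all 3 corn oil livers, and the groups averaged 9.78 ± 0.04 and 10.07 ± 0.05 (SD, n = 3 each). The difference was -0.29 ± 0.09 (SE), a ratio of 0.819 with a 95% confidence interval from 0.707 to 0.948, with an unadjusted limma p of 0.0153 and an adjusted p of 0.406. A less bright probe of Itih4, A_42_P601606, gave -0.23 ± 0.13 (SE) with groups that overlapped.

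Itih3 read 8.79, 8.79 and 8.82 in BBMP livers, against 9.04, 8.96 and 9.02 in corn oil livers. Again the groups did not overlap, and Itih3 had the smallest residual SD of the 10 genes, 0.03. The difference was -0.21 ± 0.09 (SE), a ratio of 0.865, with an unadjusted limma p of 0.0476 and an adjusted p of 0.458. Without any 1 animal Itih4 stayed between -0.32 and -0.27 and Itih3 between -0.23 and -0.19, while quantile normalisation gave -0.18 and -0.14 and normexp background correction -0.15 for both. With normexp the 2 genes under an unadjusted p of 0.05 were Hp and Saa4 instead.

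In RefSeq's GRCr8 table Itih1, Itih3 and Itih4 lie next to each other on chromosome 16, with 0 genes between Itih1 and Itih3 and 0 between Itih3 and Itih4. Of a fixed list of related genes, 2 were measurable and both were lower without overlap. Of all features 17.9% were without overlap, and 27.2% of those above a log2 level of 6. Itih1, another heavy chain gene, read 7.00, 7.03 and 7.05 in BBMP livers, against 7.17, 7.18 and 7.22 in corn oil livers. Ambp, which encodes bikunin, the protease-inhibiting light chain, read 9.95, 9.95 and 9.85 in BBMP livers, against 10.08, 10.11 and 10.02 in corn oil livers. Itih1 differed by -0.16 ± 0.08 (SE, limma adjusted p = 0.533) and Ambp by -0.15 ± 0.09 (adjusted p = 0.561). With Itih3 and Itih4, 0 of these 4 genes passed. Under quantile normalisation Ambp was at 0.02. Tnfaip6, which transfers heavy chains to hyaluronan, was well above background on 0 of the 6 arrays.

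The bases before the start of Itih4 and Itih3 are shown because these 2 genes had the smallest p of the set. Both are the 250 bases upstream of the start in RefSeq's GRCr8 promoter table, written 5′ to 3′ along the gene. Capitals mark matches on either strand to 4 motifs, which can overlap: C/EBP (TTNNGNAA), STAT (TTCNNNGAA), the core of the interleukin 6 response element (CTGGGA) and NF-kB (GGG and CC with any 5 bases between them).
Itih4 chr16:6086735-6086984 (plus strand): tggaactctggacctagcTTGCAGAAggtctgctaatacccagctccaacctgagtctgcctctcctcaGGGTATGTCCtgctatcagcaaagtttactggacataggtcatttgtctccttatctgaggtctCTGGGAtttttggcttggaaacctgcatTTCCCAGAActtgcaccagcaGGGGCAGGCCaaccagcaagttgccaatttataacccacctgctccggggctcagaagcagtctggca
Itih3 chr16:6123375-6123624 (minus strand): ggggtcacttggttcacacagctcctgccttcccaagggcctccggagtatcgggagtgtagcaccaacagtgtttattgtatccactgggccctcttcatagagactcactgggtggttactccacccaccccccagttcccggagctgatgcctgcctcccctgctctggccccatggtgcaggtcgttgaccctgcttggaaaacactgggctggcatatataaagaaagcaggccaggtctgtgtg
Itih4 held all 4 motifs, among them a STAT match that begins 89 bases before the start and overlaps an interleukin 6 core, and Itih3 held 0 of them. Of 33469 promoters of this length, 37.2% held the C/EBP motif, 7.67% the STAT motif, 25.7% the interleukin 6 core and 42.3% the NF-kB motif. Of the 7 genes of the set with an entry, 5 held the C/EBP motif, 1 the STAT motif, 4 the interleukin 6 core and 4 the NF-kB motif. A match describes these letters only.

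Lbp, Crp and Apcs encode proteins that recognise microbes or damaged cells. Lbp, the lipopolysaccharide-binding protein, hands bacterial lipopolysaccharide to CD14. It read 2.68, 2.52 and 2.57 in BBMP livers, against 2.78, 2.80 and 2.79 in corn oil livers. The corn oil livers were nearly equal and all above the BBMP livers. The difference was -0.20 ± 0.09 (SE; limma unadjusted p = 0.0683, adjusted p = 0.489), and it lay between -0.24 and -0.16 without any 1 animal.

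Crp encodes C-reactive protein and Apcs serum amyloid P component, the pair of short pentraxins, which bind exposed phosphocholine and amyloid. Crp read 6.89, 7.21 and 7.01 in BBMP livers, against 6.90, 6.99 and 7.13 in corn oil livers, so that the groups lay on top of each other. Apcs read 6.87, 6.93 and 6.93 in BBMP livers, against 6.78, 6.71 and 7.08 in corn oil livers, where corn oil 3 was higher than every BBMP liver. The differences were 0.03 ± 0.12 for Crp and 0.05 ± 0.12 for Apcs (SE; limma adjusted p = 0.950 and 0.905). Their 95% confidence intervals ran from -0.27 to 0.33 and from -0.25 to 0.35. The other probe of Crp, A_44_P252529, gave 0.03 as well. Direction is not settled for either: Crp was below 0 with quantile normalisation and without BBMP 2 or corn oil 1, and Apcs without corn oil 2.

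Crp and Apcs lie on chromosome 13 with 3 genes between them in RefSeq's table. Their upstream bases are shown, with the same marks, because they were the 2 genes of the set that were not lower.
Crp chr13:87693812-87694061 (plus strand): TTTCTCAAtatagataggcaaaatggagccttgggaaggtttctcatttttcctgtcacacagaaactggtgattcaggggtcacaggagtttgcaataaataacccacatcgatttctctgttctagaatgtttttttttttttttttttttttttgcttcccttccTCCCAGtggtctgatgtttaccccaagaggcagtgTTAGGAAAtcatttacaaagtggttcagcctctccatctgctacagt
Apcs chr13:87906509-87906758 (minus strand): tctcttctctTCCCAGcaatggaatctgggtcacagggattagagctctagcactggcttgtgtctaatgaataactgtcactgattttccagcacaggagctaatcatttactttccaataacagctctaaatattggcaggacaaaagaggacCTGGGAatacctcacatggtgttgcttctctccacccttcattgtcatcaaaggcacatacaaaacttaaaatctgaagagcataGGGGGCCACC
Crp held C/EBP matches and an interleukin 6 core, and Apcs held interleukin 6 cores and an NF-kB match; neither held the STAT motif in this window.

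Saa4 and Orm1 encode carriers in plasma. The product of Saa4 is the serum amyloid A protein that rides on high-density lipoprotein without inflammation. Its brighter probe read 9.55, 9.55 and 9.31 in BBMP livers, against 9.57, 9.79 and 9.70 in corn oil livers. The groups were barely apart, with BBMP 1 just under corn oil 1. The difference was -0.22 ± 0.12 (SE; limma adjusted p = 0.534). The dimmer probe, A_44_P210645, gave -0.28 ± 0.13 with groups that overlapped, and the brighter probe's groups overlapped too under quantile normalisation or median scaling. Saa4 was at -0.11 under quantile normalisation and at -0.14 without BBMP 3.

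Orm1, whose product binds many basic drugs and dampens leukocyte activity, read 6.65, 6.62 and 6.78 in BBMP livers, against 6.64, 7.00 and 6.95 in corn oil livers. Corn oil 1 lay among the BBMP livers and the other 2 corn oil livers above them. The difference was -0.18 ± 0.13 (SE; limma adjusted p = 0.629). It was -0.30 without corn oil 1 and -0.11 without corn oil 2, so a single control moved it by more than 1.5 times in each direction.

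Hp, Cp and Lcn2 encode binders of haemoglobin and metal. Haptoglobin (Hp) captures free haemoglobin for uptake through Cd163 on macrophages. Its brighter probe read 10.30, 10.40 and 10.18 in BBMP livers, against 10.42, 10.33 and 10.50 in corn oil livers. The groups overlapped, and the difference was -0.12 ± 0.11 (SE; limma adjusted p = 0.696). No Hp spot was marked as saturated, but the raw signal of this probe reached 75.9% to 98.8% of the scanner's ceiling, which limits how far a rise could have been read. The other Hp probe, A_44_P388673, at 45.2% to 61.2% of the ceiling, gave -0.14 ± 0.11. For the brighter probe quantile normalisation gave 0.02 and normexp -0.26, with groups that did not overlap under normexp.

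Ceruloplasmin (Cp) carries copper and oxidises iron for loading onto transferrin. It had 4 probes. The brightest, A_64_P036925, read 8.28, 8.18 and 8.19 in BBMP livers, against 8.25, 8.39 and 8.59 in corn oil livers. BBMP 1 was above corn oil 1, so the groups overlapped, and the difference was -0.20 ± 0.12 (SE; limma adjusted p = 0.570). The others gave -0.10 (A_44_P139939), -0.03 (A_44_P404836) and 0.03 (A_43_P11448), so the probes of Cp do not share a direction, and their mean gave -0.07. Without corn oil 3 the brightest probe of Cp gave -0.11.

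**Figure D2:**
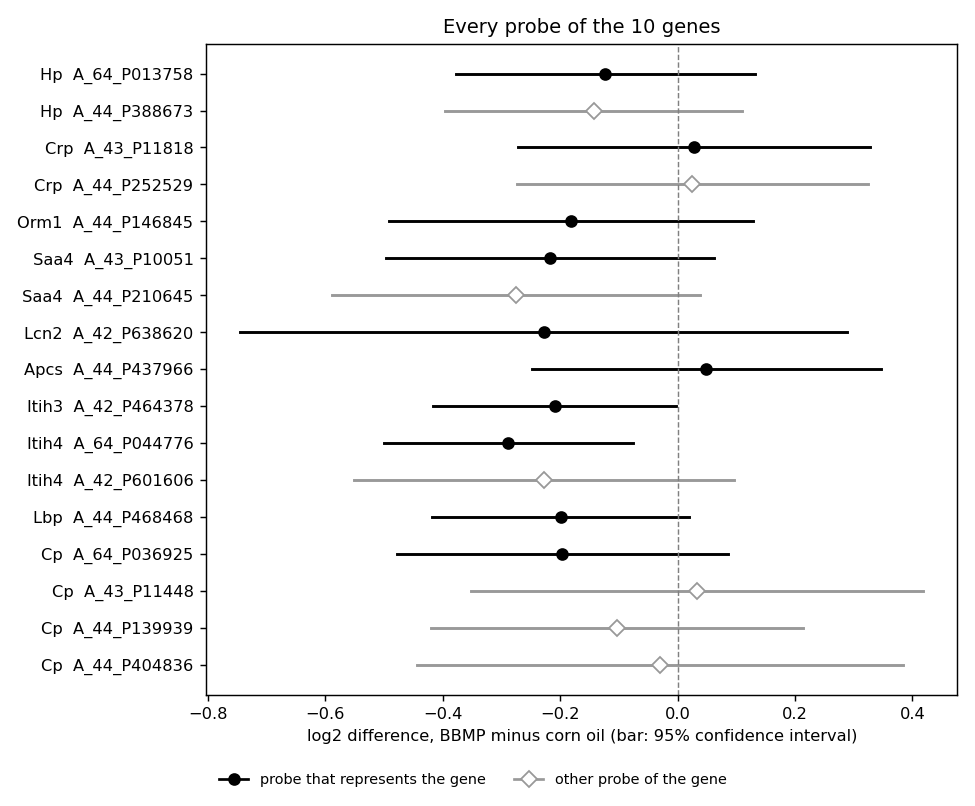
Log2 difference, BBMP minus corn oil (horizontal axis), of all 17 probes with 95% confidence intervals; filled circles are the probes that represent their gene and open diamonds the other 7. Of the 17 estimates, 13 are below 0 and 4 above, and the intervals of Itih4 A_64_P044776 and Itih3 are the ones that leave out 0.

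Lcn2 encodes lipocalin 2, which withholds iron from bacteria by binding their siderophores and is also stored in neutrophil granules. It read -1.19, -1.97 and -1.26 in BBMP livers, against -1.31, -1.20 and -1.23 in corn oil livers. BBMP 2 alone was low, and BBMP 1 was the highest of the 6. Its range over the animals was 1.71-fold, the widest of the 10 genes, and the residual SD was 0.31. The difference of -0.23 ± 0.21 (SE; limma adjusted p = 0.721) was 0.02 without BBMP 2.

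The upstream bases of Lcn2 are shown for its wide range and because its induction through NF-kB is well known.
Lcn2 chr3:36081781-36082030 (minus strand): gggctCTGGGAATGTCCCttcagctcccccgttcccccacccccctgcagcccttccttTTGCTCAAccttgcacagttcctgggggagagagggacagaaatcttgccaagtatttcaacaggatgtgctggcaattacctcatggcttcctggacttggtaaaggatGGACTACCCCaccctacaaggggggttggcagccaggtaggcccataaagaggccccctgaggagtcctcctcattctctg
They held NF-kB matches that begin 243, 242 and 81 bases before the start, a C/EBP match at 191, and an interleukin 6 core at 245 that overlaps the upstream NF-kB matches.

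Genes whose profile over the 6 animals lay nearest to that of Lcn2 were sought among 10701 named genes well above background on every array, by the mean absolute distance between centred log2 values. The nearest 5 were Adam19 (0.04), Samd14 (0.04), C2h3orf33 (0.05), Dok3 (0.06) and P2ry1 (0.06), where the median distance over all was 0.24. Each was lowest in BBMP 2, which largely follows from choosing them for likeness to Lcn2. The metalloprotease gene Adam19 read -2.14 there, against -1.57 to -1.51 in the other animals. None of the 5 was past the threshold (limma adjusted p from 0.693 to 0.816).

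Across the 6 animals the set had no common outlier among treated livers. The mean of the 10 centred values was -0.04 in BBMP 1, -0.11 in BBMP 2 and -0.08 in BBMP 3, and 0.00 in corn oil 1, 0.08 in corn oil 2 and 0.16 in corn oil 3. All 10 genes were above their own mean in corn oil 3, against 7 in corn oil 2 and 5 in corn oil 1. By this mean the controls differed among themselves by more than the treated livers did. Single genes went either way. The SD of Lcn2 was 0.43 in BBMP livers and 0.05 in corn oil livers, and that of Cp was 0.06 and 0.17.

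Other genes of the response were read from fixed lists, and 0 of their members passed limma's adjusted threshold. Across all lists the unmoderated test passed 0 as well. Of 29 further genes that rise in inflammation, 19 were lower and 10 higher after BBMP, with a median of -0.13; 3 had an unadjusted p under 0.05, all lower, a share of 10.3% that is near the 10.8% of all features. These were Fga and Fgb, chains of fibrinogen, and Hpx, which binds free haem. Fga read 8.84, 9.06 and 9.01 in BBMP livers, against 9.29, 9.24 and 9.42 in corn oil livers, a difference of -0.35 ± 0.11 (SE; limma adjusted p = 0.406). Fgb differed by -0.25 ± 0.10 and Hpx by -0.25 ± 0.10 (adjusted p = 0.458 and 0.457), both without overlap. A2m, named after its values were seen because it is a strong reactant in rats, read 1.53, 3.53 and 2.79 in BBMP livers, against 2.65, 0.82 and 3.49 in corn oil livers. It varied widely within both groups, and its difference was 0.29 ± 0.78 (adjusted p = 0.910), but -0.16 without BBMP 2 and -0.45 without corn oil 2.

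Of 15 genes that fall in inflammation, 13 were also lower, with a median of -0.14, the same direction as the genes that rise. Of the 15, 1 had an unadjusted p under 0.05 (6.67%, against 10.8% of all features), F12 (coagulation factor XII), at -0.26 ± 0.09 (SE; limma adjusted p = 0.415). Fetub, a liver protease inhibitor, differed by -0.31 ± 0.20 (adjusted p = 0.592).

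**Figure D3:**
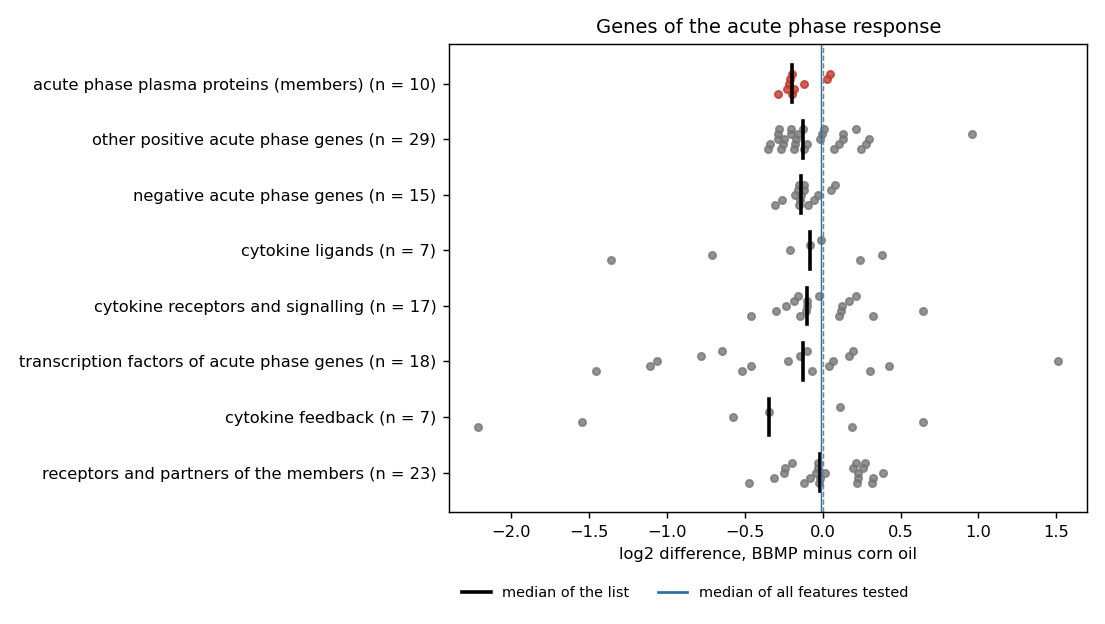
Log2 difference, BBMP minus corn oil (horizontal axis), of the 10 genes (red) and of the tested genes of 7 lists of response genes (grey), without the cell type markers and the inter-alpha-inhibitor partners; black bars are list medians and the blue line is the median of all features, -0.01. The medians of the lists drawn lie between -0.35 and -0.02, and single genes of cytokine feedback and of the transcription factors spread widest.

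Among cytokine genes 7 were measurable, 5 of them lower, and 0 had an unadjusted p under 0.05. Tnf read -3.78, -3.49 and -1.50 in BBMP livers, against -1.83, -1.05 and -1.82 in corn oil livers, so BBMP 3 lay among the controls (difference -1.36 ± 0.61, SE; limma adjusted p = 0.484). Lif differed by 0.38 ± 0.18 and Osm by 0.24 ± 0.16 (limma adjusted p = 0.492 and 0.603), but by 0.06 and 0.04 with normexp. Il1b and Il1a, interleukin 1 genes named after their values were seen, differed by -0.71 ± 0.47 and -0.21 ± 0.21 (adjusted p = 0.605 and 0.731). Il6, Il22 and Ifng, named after their values were seen, were not well above background on any array, which sets no level for them.

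Receptors and signalling genes numbered 17, of which 10 were lower, and again 0 had an unadjusted p under 0.05. Stat3, which carries the interleukin 6 signal, read 2.97, 3.42 and 3.05 in BBMP livers, against 3.88, 3.29 and 3.66 in corn oil livers. BBMP 2 was above corn oil 2, and the difference was -0.46 ± 0.19 (SE; limma adjusted p = 0.465), while another Stat3 probe gave -0.03. For Il6st, the shared receptor chain gp130, the brightest probe gave -0.30 and its 3 other probes were above 0, up to 0.33. For Jak1 the probes also disagreed, from -0.09 to 0.30.

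Feedback inhibitors gave the smallest p of the pathway. Socs3, which STAT3 induces and which blocks gp130, read -2.26, -2.15 and -2.34 in BBMP livers, against -1.75, -1.60 and -1.67 in corn oil livers. The groups were clearly apart, by -0.58 ± 0.10 (SE; limma adjusted p = 0.314), and its second probe gave -0.53. Cish and Socs2, targets of STAT5, differed by -2.21 ± 0.78 and -1.55 ± 0.64 (adjusted p = 0.426 and 0.462) with groups that overlapped. The second probe of Cish gave -0.88. Socs3, Cish and Socs2, 3 of the 7 tested feedback genes, had an unadjusted limma p under 0.05, against 10.8% of all features. Of the 7, 1 had groups that did not overlap, against 17.9%.

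Of 18 transcription factors of acute phase genes, 11 were lower and 7 higher, and 3 (16.7%) had an unadjusted p under 0.05, against 10.8% of all features. Junb, an AP-1 subunit, read 2.39, 2.39 and 2.27 in BBMP livers, against 2.70, 3.44 and 3.27 in corn oil livers (difference -0.78 ± 0.20, SE; limma adjusted p = 0.388). Foxa2 differed by -1.46 ± 0.49 and Nr0b2, the bile acid-responsive repressor SHP, by 1.51 ± 0.43 (adjusted p = 0.417 and 0.404), each without overlap. Of 23 receptors and partners of the 10 proteins, 12 were lower with a median of -0.02. Of the 23, 1 had an unadjusted limma p under 0.05 (4.35%, against 10.8% of all features). It was Hpx, already counted above among the genes that rise in inflammation. Asgr1, the receptor that clears asialoglycoproteins, differed by -0.20 ± 0.09 (SE, limma adjusted p = 0.477). Atp7b, which loads copper into ceruloplasmin, differed by -0.48 ± 0.23 (adjusted p = 0.508), while another Atp7b probe gave -0.12.

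In whole liver, fewer cells of a type and less RNA per cell cannot be told apart, so markers of the cells present are given beside these values. The summed scaled signal of 10 hepatocyte markers was 3703 to 4333 in BBMP livers and 4035 to 4427 in corn oil livers (units of the 75th percentile), 5 of 10 lower; Alb differed by 0.05, Apoa1 by -0.16, Ttr by -0.15 and Cps1 by 0.49. That of 7 stellate cell and fibroblast markers was 27.2 to 31.8 in BBMP livers and 35.0 to 39.9 in corn oil livers, without overlap. Of the 7, 5 were lower, among them Lrat (-0.49, another probe -0.21), Reln (-0.25) and Pdgfrb (-0.53). Each such sum is weighted toward its brightest probes, and the brightest of these 7 markers overlapped between the groups when read alone. All 8 Kupffer cell and macrophage markers with a probe were higher, among them Clec4f (0.34) and Vsig4 (0.55). The haptoglobin receptor Cd163 differed by 0.23, and its 3 probes ran from 0.23 to 0.68. The sums of the 8 markers overlapped, however, at 69.7 to 90.4 in BBMP livers and 53.0 to 88.7 in corn oil livers. Neutrophil markers bear on Lcn2 and Hp: 4 of 10 were tested, all lower, with sums of 1.68 to 2.83 in BBMP livers and 2.34 to 4.35 in corn oil livers, while Elane, Ltf, Ngp, Mmp8 and Cxcr2 were not well above background on any array. S100a8 (-0.69), S100a9 (-0.65) and Camp (-0.19) were not lowest in BBMP 2, where Lcn2 was low. The fourth tested marker, Fcnb, named after its values were seen, was lowest in BBMP 2, at -1.90 there and between -1.15 and -0.01 in the other 5 livers. Between the groups Fcnb differed by -0.008 ± 0.45 (SE, limma adjusted p = 0.996), which is almost no difference. The sums for sinusoidal endothelium, cholangiocytes, lymphocytes and red cells overlapped between the groups. The part of these cells in the differences was not tested.

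**Figure D4:**
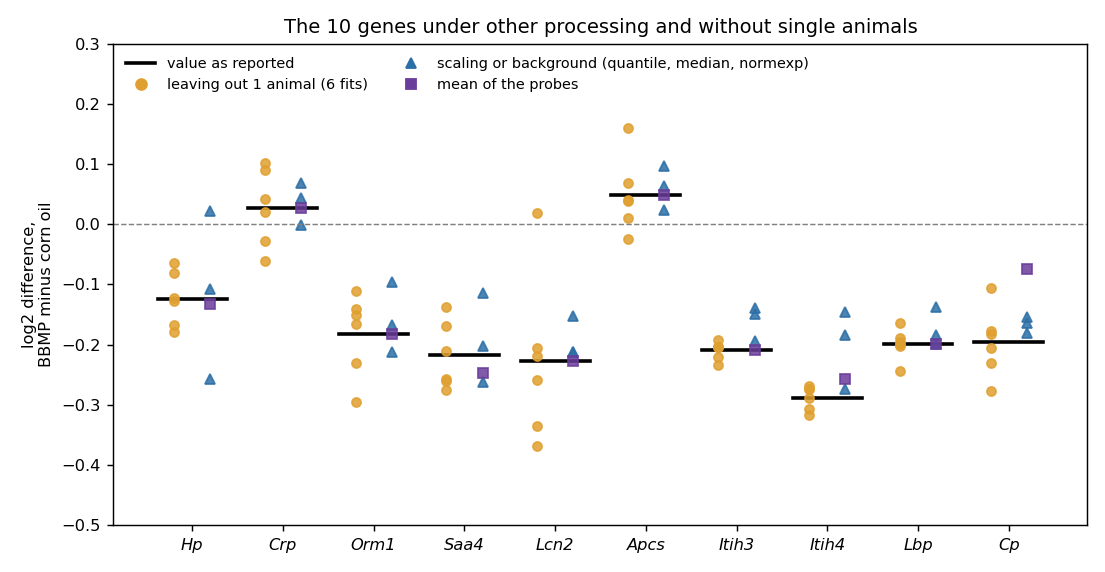
Log2 difference, BBMP minus corn oil (vertical axis), of each of the 10 genes as reported (black line), without each of the 6 animals (orange), under other scaling or background correction (blue) and as the mean of its probes (purple). Itih4, Itih3, Lbp, Saa4, Orm1 and Cp stay below 0 in all of these, whereas Hp, Crp, Lcn2 and Apcs cross it in at least 1.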

How the data were processed

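Liver RNA of 6 rats, 3 given BBMP and 3 given corn oil, was measured on 1-colour Agilent arrays (design 035170, annotated on rn4). The labels gave each animal's group and number; 1 array stands for 1 animal. Per the file headers, the deposited scanner files hold linear intensity from Feature Extraction 10.7.1.1 (10.7 in the submitters' processing notes), background-subtracted, detrended and not normalised between arrays, with 0 or 1 flags from the same software. The authors' value table, also linear intensity, was proportional to the processed signal after division by each array's 75th percentile (medians 0.0971 to 0.1005); no direction or centring applies to it.

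Control spots (1319 of 62976) and 84 spike-in probes were left out, as were spots marked as outliers (at most 21 per array). Accessions were matched to RefSeq's GRCr8 gene table, which named 27460 of 61573 probes (44.6%) and 15284 genes. A feature entered the test if the 3 arrays of at least 1 group read it well above background, and the probe with the highest mean represented a gene. The two-sided test was limma 3.58.1 (R 4.3.3), its p-values adjusted by Benjamini-Hochberg across 28112 features. The p-values of other probes come from a fit with every probe as its own row. The fit was tested on simulated data. Tables and figures used Python 3.11.15, pandas 2.3.3, numpy 2.4.6 and matplotlib 3.10.9.

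The genes and lists were chosen with earlier results of these data known. Genes were named by a rule: the 10 genes with all probes, up to 3 of each list with the smallest p, the 3 foremost of each marker list, and the 5 nearest to the member with the widest range. Some that the rule allows are not named. Alternatives are given in the closing section; normexp used the median spot signal, the one in the files. Promoter bases are RefSeq's, found for 7 of 10 genes.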

Additional observations from a re-analysis of the deposited data

How the results depend on the processing

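In all 18 alternatives 0 of the 10 genes passed the adjusted threshold, and no adjusted p was below 0.351. The number of the 10 with an unadjusted p under 0.05 was 2; it was 0 with quantile normalisation, and 1 (Itih4) with median scaling, without a filter and with the replicate block. It was 3 with trend and robust moderation, where Lbp joined Itih3 and Itih4. Leaving out 1 animal gave 0 to 2. The number without overlap was 4; it was 2 with quantile normalisation (Itih4 and Lbp), 3 with median scaling and with the mean of the probes (Itih3, Itih4 and Lbp), and 4 to 6 when 1 animal was left out. Leaving out an animal can only keep or raise the number without overlap. Between 8 and 9 of the 10 were lower, and the median of the 10 lay between -0.23 and -0.15.

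Signs turned under quantile normalisation for Hp (0.0219), Crp (-0.00189) and Ambp (0.0184), under normexp for Alb (-0.105) and P2ry1 (0.00156), with the mean of the probes for Il6st (0.0471) and with probe A_43_P11448 for Cp (0.0331). Leaving out 1 animal also turned signs: Crp ran from -0.0604 to 0.102, Lcn2 from -0.369 to 0.0193, Apcs from -0.0245 to 0.161 and A2m from -0.454 to 0.879. Likewise Adam19 ran from -0.296 to 0.0156, Alb from -0.00365 to 0.118, Camp from -0.399 to 0.0941, P2ry1 from -0.242 to 0.0236 and Samd14 from -0.315 to 0.0912. The cause was not tested, except that a fit without 1 animal has fewer samples. Of 720 values for other named genes, which leave out Il1a, Il1b and Fcnb, 0 passed the threshold.

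Nothing in the labels pairs the animals by number, and deviations of equal numbers correlated at 0.09, 0.02 and 0.07; for number 2 another number gave the highest correlation. The block left 0 of all features past the threshold, against 2 without it. Signal near the scanner's ceiling limits Hp. The brighter probe of Itih4 reached 55.4% to 68.6% of the ceiling and that of Saa4 40.3% to 53.8%, without saturated spots.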
